A study of Mus musculus with 24 samples.

Results

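Mouse Meis1/Hoxa9 preleukemic cells that lacked TUT4 and TUT7 in the blood lineage (cDKO) were compared with control cells 540 min after the removal of 4-thiouridine (4SU). The 6 libraries whose titles give the 540 min chase were used, 3 of each genotype, out of 24 in the series. All embryos were Tut4 fl/fl and Tut7 fl/fl on a C57BL/6 background; cDKO cells came from those that also carried the Vav-iCre transgene (Tut4/7 Vav-iCre cDKO in the labels), and control cells from littermates without it. The Vav promoter drives Cre in blood cells, so the floxed alleles are shared and only cDKO cells recombine them. In both, c-Kit+ fetal liver cells had been transduced with Meis1 and Hoxa9 retroviruses, grown with stem cell factor, IL-3 and IL-6, and labeled with 2.9 µM 4SU for 12 h. The chase time is the labeled batch, so both genotypes lie within 1 batch here, and p-values measure the spread between the cultures of each genotype.

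TUT4 and TUT7 are terminal uridylyl transferases. By tailing RNAs with uridine at the 3′ end, they mark many mRNAs and pre-miRNAs for decay or alter their processing. In SLAM-seq, 4SU taken up by cells is built into new RNA, and its alkylation makes the base read as C in place of T. After a chase, the fraction of covered T bases that were read as C (the residual conversion rate) reports on transcripts made during labeling that are still present, while the read count reports on how much of the transcript there is in all. Any conversions read without label count toward the residual rate too, since no background was subtracted. The question asked of these 6 libraries was how both quantities differ between genotypes at the end of the chase.

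The libraries held 10669451 to 13882269 filtered reads, of which 5414254 to 7041311 lay in annotated 3′ untranslated regions (UTRs). Levels are given as CPM, 3′ UTR reads scaled to the 3′ UTR total of their library. The targeted genes were lower in every cDKO library. Tut4 was at 81.3, 84.9 and 76.5 CPM in the control libraries and at 26.4, 27.3 and 21.2 CPM in the cDKO libraries (log2 fold change -1.70 ± 0.13 SE, adjusted p = 5.46e-05, edgeR quasi-likelihood test; values after ± are SE unless SD is named). Tut7 was at 62.6, 54.5 and 61.4 CPM against 23.7, 19.8 and 21.2 CPM (-1.47 ± 0.13, adjusted p = 0.000113). Reads in a 3′ UTR do not show whether a deleted exon is present, so remaining reads say nothing of protein. Sex-linked transcripts differed between embryos: Xist was at 210, 531 and 399 CPM in control and at 2053, 65.0 and 2069 CPM in cDKO, and the Y-linked Ddx3y was at 0 in the control libraries and at 12.3, 115 and 3.21 CPM in cDKO. Genes on chromosome 3 had a median log2 fold change of -0.52 in cDKO, while the medians of the other autosomes and of chromosome X lay between -0.04 and 0.06. A gene on chromosome 3 is marked as such below, and the part of this shift in its value was not tested.

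Of 10275 genes tested for read abundance, 1977 were called (19.2%, edgeR quasi-likelihood test, adjusted p below 0.05), with 913 increases in cDKO (8.89%) and 1064 decreases (10.4%). An unadjusted p below 0.05 was found in 31.5%. Chromosome 3 alone held 259 of the decreases and 14 of the increases, and in the fit without its genes increases and decreases were nearly equal in number. All cDKO libraries lay above all control libraries in 18.2% of the genes tested and below them in 18.9%. Among the genes called higher, 368 had a log2 fold change above 1, and 369 of those called lower had one below -1. In all, 40 of the genes called higher had no read in any control library, and 12 of those called lower had none in any cDKO library. For these, a fold is given as a lower bound, against a floor of 3 reads summed over the group without reads. A gene nearly absent from 1 genotype passes the filter on low counts only through the other. Shares of tested list members that rose or fell are partly set by this filter. In bulk RNA, fewer cells of a type and less RNA per cell cannot be told apart.

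Neutrophil and monocyte genes were among those with far fewer reads in cDKO. Of 10 neutrophil genes tested, 5 fell and 1 rose, beside 10.4% and 8.89% of all genes. Of those that fell, Mmp8, S100a8 and S100a9 passed the filter on low counts through control alone. The median log2 fold change of the list was -2.11, beside a median of all genes near 0. Elane, the elastase of neutrophil granules, was at 1260, 1448 and 1284 CPM in control and at 135, 40.4 and 14.96 CPM in cDKO (log2 fold change -4.40 ± 0.61, adjusted p = 0.00126). The genotypes did not overlap, and the cDKO libraries ranged widely among themselves. Mmp8, the neutrophil collagenase, was at 12.9, 14.5 and 12.2 CPM in control, and in cDKO it had 3 reads in all, in 1 library (74.2-fold lower, exact 95% binomial interval 25.1 to 362, adjusted p = 0.000341). The calprotectin subunits S100a8 and S100a9, both on chromosome 3, fell to 7 reads and 1 read in the 3 cDKO libraries from 369 and 61 in control (log2 fold changes -5.47 ± 0.52 and -5.34 ± 0.83). Lcn2, which encodes an iron-sequestering protein of neutrophil granules, fell by 1.07 on the log2 scale (adjusted p = 0.0169, up to 0.0732 under the alternatives). The exception was Cebpe, a transcription factor of late granulocyte development, at 14.2, 19.4 and 20.0 CPM in control and 53.4, 49.0 and 30.3 CPM in cDKO (1.29, adjusted p = 0.00449). The sum of the 17 neutrophil genes lay between 1980 and 2383 CPM in control and between 179 and 512 CPM in cDKO, with Elane making up most of it in control.

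Of 11 monocyte and macrophage genes tested, 6 fell and 1 rose (median log2 fold change -1.35), beside 10.4% and 8.89% of all genes. Of those that fell, F13a1, Csf1r, Ctss and Lyz2 passed the filter on low counts through control alone. Csf1r, the receptor for macrophage colony-stimulating factor, was at 23.5, 49.3 and 28.7 CPM in control and at 2.17, 0.700 and 0.178 CPM in cDKO (-5.05 ± 0.54, adjusted p = 0.000341). F13a1, the coagulation factor XIII A chain of monocytes, went from 2409 reads in the control libraries to 4 in the cDKO libraries (530-fold lower, adjusted p = 2.16e-06), among the 12 largest decreases of all genes. Ctss, the lysosomal protease cathepsin S (chromosome 3), had 517 control reads and 16 in cDKO, where it was at 0.525 to 1.42 CPM (-4.80 ± 0.33). Ccr2, the receptor that monocytes use to leave the marrow, was an abundant transcript in control at 1492, 1365 and 1362 CPM and fell to 298, 168 and 549 CPM (-2.06 ± 0.34, adjusted p = 0.00304). Lyz2 fell as well, by 3.16 on the log2 scale, although 43.6% of its reads mapped to more than 1 place. Irf8, a transcription factor of the monocyte lineage, fell by 1.35 (adjusted p = 0.000751). Adgre1, which encodes the macrophage marker F4/80, went the other way, from 26.0, 35.5 and 33.9 CPM to 198, 272 and 279 CPM (2.96, adjusted p = 1.37e-05). In each of the 7 genes called, no cDKO library overlapped the control libraries.

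**Figure D1:**
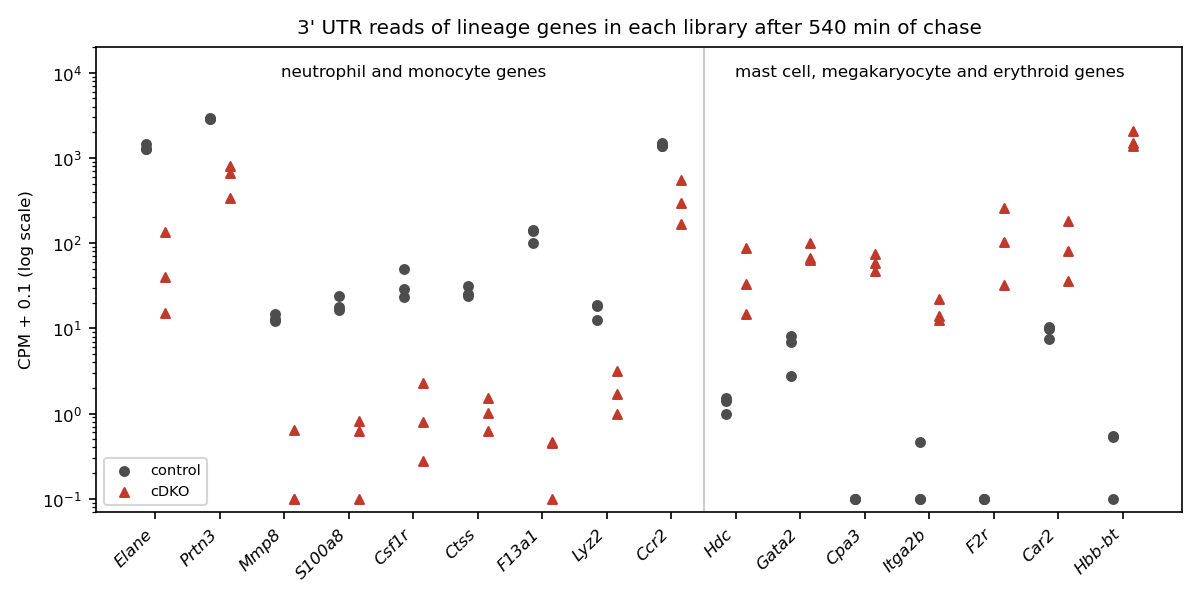
Reads of 16 lineage genes at 540 min in each of the 3 control (circles) and 3 cDKO (triangles) libraries, as CPM plus 0.1 on a log scale, so that a point at 0.1 has no read. The 9 neutrophil and monocyte genes on the left lie lower in every cDKO library, and the 7 mast cell, megakaryocyte and erythroid genes on the right lie higher in every cDKO library. The 16 genes were picked from called members of their lists. Cebpe and Adgre1, which rose, and members that were not called are left out.

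Among 16 genes of myeloid progenitors, the cells named by the labels' c-Kit+ origin, 8 fell and 1 rose (median log2 fold change -0.52). Of all genes, 10.4% fell and 8.89% rose. All 16 had reads in both genotypes. Prtn3, the azurophil granule proteinase 3, was at 2964, 2874 and 2859 CPM in control and at 800, 673 and 337 CPM in cDKO (-2.27 ± 0.25, adjusted p = 0.0004). Ctsg, which encodes cathepsin G of the same granules, went from 2604, 2391 and 2603 CPM to 1742, 1563 and 1604 CPM (-0.64, adjusted p = 0.000214). Spi1, which encodes the myeloid transcription factor PU.1, fell by 0.51 (adjusted p = 0.00915) and Itgam, an integrin of myeloid cells, by 0.62 (adjusted p = 0.0096). Mpo, myeloperoxidase, was at 569, 764 and 707 CPM in control and at 220, 11.2 and 0.712 CPM in cDKO, and was not called (-3.15 ± 1.08, adjusted p = 0.0739). Kit itself was not called, at 45.4 to 76.3 CPM in control and 42.5 to 52.0 CPM in cDKO (-0.40, adjusted p = 0.183), and Ly6c2, an abundant surface marker of the monocyte and granulocyte lineages, was at 3406 to 4210.0 CPM in cDKO and 3547 to 4059 CPM in control (-0.02, adjusted p = 0.92). The gene that rose was Csf2rb, the signaling chain shared by the IL-3 and GM-CSF receptors, from 329, 346 and 362 CPM to 555, 467 and 807 CPM (0.81, adjusted p = 0.00984, and 0.0567 without control replicate 1).

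The promoters of 6 of the myeloid genes that fell are shown around a motif that they share. GAGGAAGT, a form of the purine-rich site that PU.1 and other ETS factors can bind, was searched on both strands from 250 bases before to 50 bases after each start (RefSeq promoters, GRCm38.p6). The motif was chosen after the abundance values were known. Capitals mark the motif, or ACTTCCTC where it lies on the other strand, and every sequence is written along its gene:
Elane: cgtgtcccaggGAGGAAGTagggctgtggc
Prtn3: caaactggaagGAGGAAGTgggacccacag
F13a1: cgagtccttttGAGGAAGTacccagaggca
S100a8: ccaacactcccACTTCCTCagactcagaaa
Mmp8: taactagcacaACTTCCTCattacacacag
Ctss: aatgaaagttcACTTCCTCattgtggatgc
The windows are chr10:79886216-79886245 (+) for Elane, chr10:79879561-79879590 (+) for Prtn3, chr13:37049181-37049210 (-) for F13a1, chr3:90668888-90668917 (+) for S100a8, chr9:7558197-7558226 (+) for Mmp8 and chr3:95526773-95526802 (+) for Ctss. Of the 15 neutrophil, monocyte and progenitor genes that fell and have a promoter in the table, these 6 hold the motif. The motif was chosen with these genes known and members that did not fall were not counted, so this share is no test. It is present in 3.69% of all 27025 genes with a promoter, in 4.59% of the genes called lower and in 4.94% of the genes called higher. A match describes the letters in this window and is no measure of binding.

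Genes of mast cells, megakaryocytes and erythroid cells were among the largest gains. Of 6 mast cell and basophil genes tested, 3 rose and none fell, beside 8.89% and 10.4% of all genes. Cpa3 and Hdc passed the filter on low counts through cDKO alone. Cpa3, the carboxypeptidase of mast cell granules (chromosome 3), had no read in the control libraries and was at 47.3, 57.8 and 74.4 CPM in the cDKO libraries, at least 383-fold higher (adjusted p = 2.87e-05). Hdc, the histamine-forming enzyme, was at 1.29, 0.894 and 1.42 CPM in control and at 32.9, 14.7 and 86.4 CPM in cDKO (5.19 ± 0.70, adjusted p = 0.00114). Gata2, a transcription factor of progenitors and mast cells, was at 6.83, 2.68 and 8.10 CPM against 67.5, 63.7 and 99.2 CPM (3.70 ± 0.33, adjusted p = 0.000118). Each of the 3 genes was higher in every cDKO library than in any control library. The mast cell proteases Mcpt4, Tpsb2, Tpsab1 and Cma1 and the receptor chain Fcer1a had no read in either genotype, and the 14 genes of the list summed to 45.4 to 54.5 CPM in control and 161 to 308 CPM in cDKO.

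Of 6 megakaryocyte and platelet genes tested, 4 rose (8.89% of all genes did). Of the 4, F2r and Itga2b passed the filter on low counts through cDKO alone. F2r, the thrombin receptor PAR1, had no control read and was at 102, 32.2 and 258 CPM in cDKO (at least 833-fold higher, adjusted p = 0.00216). Itga2b, the platelet integrin chain CD41, had 2 control reads and was at 13.7, 12.4 and 22.1 CPM in cDKO (154-fold higher, exact 95% binomial interval 42.2 to 1278, adjusted p = 0.000194). The other two were F2rl2, at 17.6 to 28.6 CPM in control and 67.7 to 128 CPM in cDKO (1.97 ± 0.27), and Thbs1, at 1.70 to 3.51 CPM and 6.30 to 7.30 CPM (1.34 ± 0.37, adjusted p = 0.0346), whose call was lost whichever library was left out (adjusted p up to 0.114). The platelet genes Ppbp, Gp5 and Gp1bb had no read in either genotype.

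Among erythroid genes, 3 of 17 could be tested and 2 rose (8.89% of all genes did). Of the 2, Hbb-bt passed the filter on low counts through cDKO alone. Hbb-bt, an adult beta-globin gene, had 6 reads in the control libraries and was at 1360, 1476 and 2075 CPM in cDKO (12.26 ± 0.33, adjusted p = 1.93e-07). Of the Hbb-bt reads, 0.167% mapped to more than 1 place. Its near-identical neighbor Hbb-bs was counted at 0 in all 6 libraries. Car2, carbonic anhydrase 2 (chromosome 3), was at 10.2, 7.45 and 9.80 CPM in control and at 81.6, 35.7 and 184 CPM in cDKO (3.45 ± 0.53, adjusted p = 0.00226). The alpha-globin genes Hba-a1 and Hba-a2 had 38 and 68 reads in cDKO and none in control. The erythroid genes Alas2, Slc4a1, Epor, Car1 and Rhag had no read in either genotype, and Gata1 had 1 read in all. In the lymphoid list, 1 gene of 16 passed the filter on low counts, Nkg7, which was not called, and the list summed to 1.85 to 3.55 CPM in control and 2.35 to 3.74 CPM in cDKO.

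The 12 largest increases by the rule for named genes were Susd5, F2r, Gria2, Hbb-bt, Kynu, Robo1, Akr1c12, Cpa3, Ddx3y, Lurap1l, 6330415B21Rik and Rab38, and 11 of them had no read in control. Susd5 was at 98.6, 140 and 188 CPM in cDKO (at least 909-fold higher, adjusted p = 2.98e-05). Robo1, a guidance receptor, was at 52.5, 76.2 and 80.0 CPM (at least 445-fold higher, adjusted p = 2.4e-05), and Kynu, the kynureninase of tryptophan breakdown, at 75.8, 63.2 and 147 CPM (at least 610-fold higher). Gria2, a glutamate receptor subunit (chromosome 3), was uneven among the cDKO libraries, at 90.1, 6.48 and 230 CPM (at least 693-fold higher, adjusted p = 0.0104). Akr1c12 belongs to a family of closely related genes, and 0% of its reads mapped to more than 1 place. F2r, Gria2, Lurap1l and 6330415B21Rik were all lowest in cDKO replicate 2 and highest in replicate 3. The call of Ddx3y was lost without any 1 of the control libraries (adjusted p up to 0.0771).

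The 12 largest decreases were Pakap, D630023F18Rik, Pmp22, Mef2c, Capn11, F13a1, Zfp979, Gpc1, 1700030C10Rik, Lrp1, Greb1 and Gpnmb. For 1700030C10Rik, 30.3% of the reads mapped to more than 1 place. Pakap had 555 control reads and none in cDKO (at least 163-fold lower, adjusted p = 4.92e-05). Mef2c, a transcription factor with roles in myeloid and lymphoid progenitors, was at 13.5, 21.5 and 6.96 CPM in control and undetected in cDKO (at least 78.0-fold lower, adjusted p = 0.00102). Pmp22, a membrane protein gene, was at 16.8, 20.1 and 16.9 CPM in control and was undetected in cDKO as well (at least 101-fold lower). Lrp1, an endocytic receptor of macrophages, had 2 cDKO reads against 439 (193-fold lower, exact 95% binomial interval 53.2 to 1600). Gpnmb, a glycoprotein of macrophages, was at 31.6, 50.5 and 17.2 CPM in control and at 0.181 to 0.350 CPM in cDKO (-7.01 ± 0.59).

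**Figure D2:**
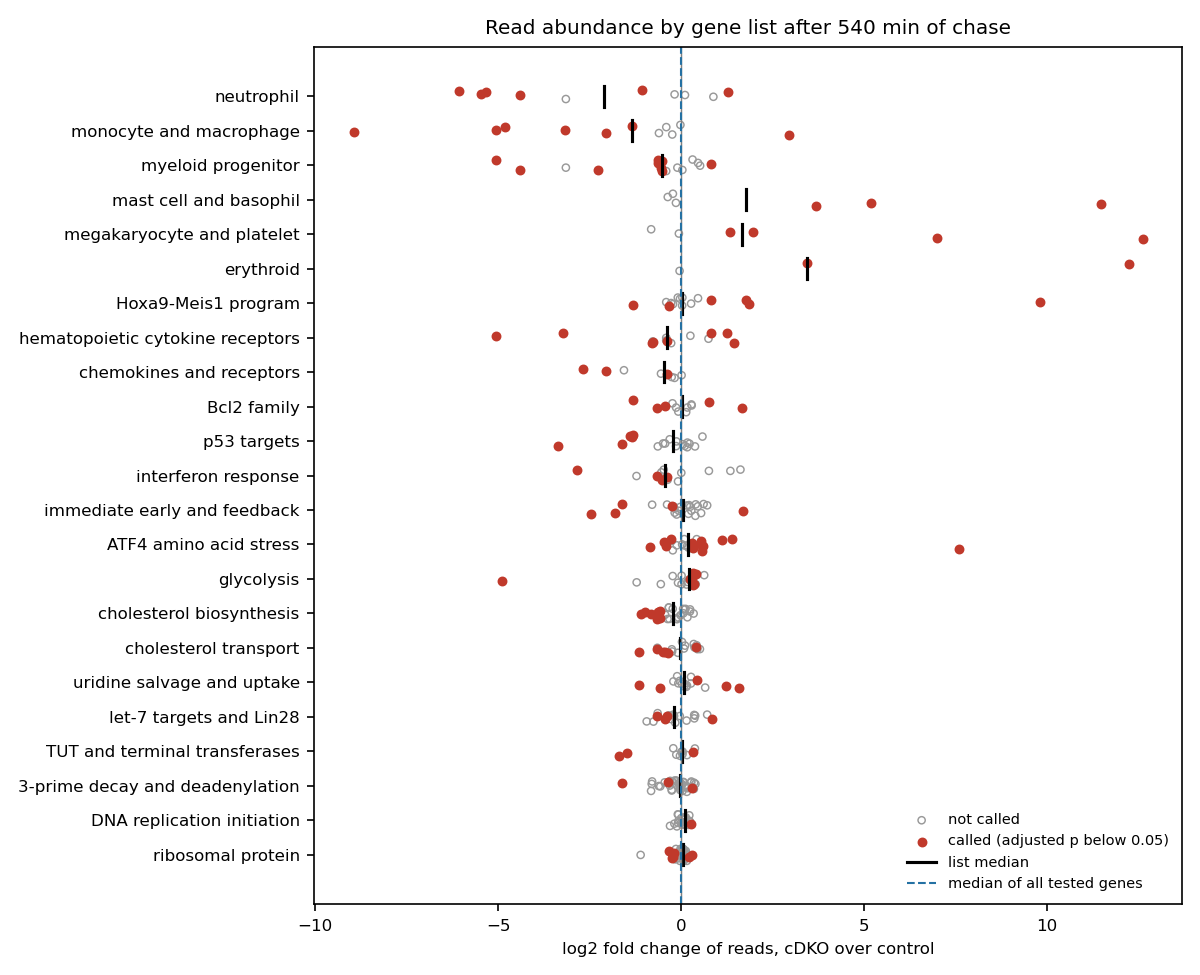
Log2 fold change of reads, cDKO over control at 540 min, for every tested member of 23 gene lists. Filled points were called, open points were not, a black bar is the median of a list and the dashed line the median of all 10275 genes; for a gene without reads in a genotype the fitted value depends on a prior count. Neutrophil and monocyte lists extend to the left and mast cell, megakaryocyte and erythroid lists to the right, while ribosomal protein and DNA replication genes lie near 0.

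Genes of the Hoxa9 and Meis1 program moved in both directions, with 4 of 15 higher and 2 lower (median 0.03). Of all genes, 8.89% were higher and 10.4% lower. Hoxa9, the homeobox gene also carried by a retrovirus here, was at 1946, 2248 and 2115 CPM in control and at 3377, 3459 and 4399 CPM in cDKO (0.83, adjusted p = 0.000715). Its cofactor gene Pbx3 rose from 9.60, 12.4 and 15.3 CPM to 45.3, 43.2 and 41.3 CPM (1.78 ± 0.19, adjusted p = 0.000289), and Erg, an ETS factor of stem cells, from 10.3, 10.1 and 18.2 CPM to 44.6, 44.8 and 51.8 CPM (1.85 ± 0.23). Hlf, a transcription factor of hematopoietic stem cells, had 2 control reads and was at 88.1, 31.0 and 222 CPM in cDKO (1086-fold higher, exact 95% binomial interval 300.3 to 8977, adjusted p = 0.00046). Id2, an inhibitor of helix-loop-helix factors, fell by 1.31 (adjusted p = 0.00842).

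Of 14 hematopoietic cytokine receptor genes tested, 3 rose and 5 fell, beside 8.89% and 10.4% of all genes. Those that rose were Il2rg, the common gamma chain, from 69.7 to 75.9 CPM in control to 151 to 274 CPM in cDKO (1.46 ± 0.19, adjusted p = 0.00106), Csf2rb2 (1.25 ± 0.26, adjusted p = 0.00929) and Csf2rb. Il6ra, the receptor for the IL-6 in the medium (chromosome 3), was at 65.8, 66.6 and 57.4 CPM in control and at 9.57, 7.00 and 3.74 CPM in cDKO (-3.23 ± 0.26, adjusted p = 6.25e-05). Socs3, which is induced by IL-6 family cytokines and feeds back on their receptors, was at 43.6, 52.9 and 49.3 CPM in control and at 15.9, 8.75 and 17.3 CPM in cDKO (-1.81 ± 0.23, adjusted p = 0.000825). Among 8 chemokine and receptor genes, Ccl9, Ccr2 and Cxcr4 fell and none rose, beside 10.4% and 8.89% of all genes. Ccl9, a chemokine of myeloid cells, went from 334, 336 and 287 CPM to 59.8, 71.1 and 18.7 CPM (-2.69 ± 0.36), while Cxcr4 went from 197, 207 and 198 CPM to 167, 155 and 142 CPM (-0.38 ± 0.08, adjusted p = 0.0109, and 0.0543 without control replicate 2).

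Genes of the Bcl2 family, which set the threshold for apoptosis, gave 2 of 12 higher and 3 lower, beside 8.89% and 10.4% of all genes. The genes for the anti-apoptotic BCL2 and BCL-XL rose: Bcl2 was at 60.4, 52.3 and 51.1 CPM in control and at 174, 114 and 232 CPM in cDKO (1.66 ± 0.22, adjusted p = 0.0011), and Bcl2l1 at 27.7, 32.0 and 30.5 CPM against 48.0, 46.2 and 59.5 CPM (0.76 ± 0.14, adjusted p = 0.00534). The pro-apoptotic Pmaip1 fell from 56.5, 58.3 and 51.0 CPM to 22.2, 22.4 and 22.3 CPM (-1.32 ± 0.12, adjusted p = 0.000134). Mcl1, which is anti-apoptotic (chromosome 3), fell by 0.45 (adjusted p = 0.00511), and Bcl2l11, which encodes the pro-apoptotic BIM, fell by 0.65 (adjusted p = 0.0239, up to 0.0898 with a library left out). Pmaip1 is also 1 of 5 of 18 p53 target genes that fell, with Gdf15, Btg2, Tnfrsf10b and Trp53inp1, and none rose. Gdf15 had 72 control reads and 6 in cDKO (-3.36 ± 0.63, adjusted p = 0.0059). The calls of Btg2, Tnfrsf10b and Trp53inp1 were lost with a library left out (adjusted p up to 0.102, 0.0941 and 0.115), and Cdkn1a, the cell cycle inhibitor p21, was not called (-0.12, adjusted p = 0.639).

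Metabolic lists moved by smaller amounts. In cholesterol biosynthesis, 7 of 25 genes fell and none rose (median -0.23), beside 10.4% and 8.89% of all genes. Fdps, which forms farnesyl diphosphate (chromosome 3), was at 53.9, 70.9 and 72.3 CPM in control and at 39.7, 39.0 and 21.0 CPM in cDKO (-0.99 ± 0.23, adjusted p = 0.0155), a call lost without control replicate 2 or 3 (adjusted p up to 0.0693). Hmgcs1, which makes HMG-CoA, was at 121, 131 and 101 CPM against 76.2, 72.8 and 78.2 CPM (-0.64 ± 0.11, adjusted p = 0.00444). Srebf2, which encodes the transcription factor that drives the pathway, fell from 148, 132 and 149 CPM to 81.8, 91.6 and 70.9 CPM (-0.82 ± 0.11, adjusted p = 0.00115). Pmvk (chromosome 3), Mvd and Sc5d fell as well, by 1.09, 0.66 and 0.58 on the log2 scale, and 5 of the 7 lie outside chromosome 3; the call of Sc5d was lost under an alternative (adjusted p up to 0.054). Cyp51 was at 48.6, 58.7 and 54.0 CPM in control and 65.2, 64.8 and 76.0 CPM in cDKO and was not called (0.35 ± 0.12, adjusted p = 0.0859), and Fdft1, of whose reads 52.7% mapped to more than 1 place, was not called either (0.10 ± 0.20, adjusted p = 0.783).

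In cholesterol transport, 5 of 18 genes fell and 1 rose, beside 10.4% and 8.89% of all genes. Soat1, which esterifies cholesterol, went from 103, 98.2 and 95.9 CPM to 50.4, 38.3 and 45.8 CPM (-1.15 ± 0.12, adjusted p = 0.000342), and Lipa, the lysosomal acid lipase, fell by 0.66 (adjusted p = 0.00837). Npc1 and Stard3 fell by 0.44 and 0.50 with calls lost on leaving out a library (adjusted p up to 0.162 and 0.119). In glycolysis, 6 of 19 genes rose and 1 fell (median 0.22), beside 8.89% and 10.4% of all genes. The 6 were Pfkp, Tpi1, Ldha, Pgk1, Slc2a1 and Gpi1, with log2 fold changes from 0.25 to 0.41, and the calls of Pgk1, Slc2a1 and Gpi1 were lost under some alternatives (adjusted p up to 0.0632, 0.133 and 0.0812). Ldha, lactate dehydrogenase A, was at 395, 400 and 409 CPM in control and at 482, 572 and 477 CPM in cDKO (0.34 ± 0.08, adjusted p = 0.0162, up to 0.0697 without any 1 control library). The decrease was in Hk3, the hexokinase of myeloid cells, from 214, 142 and 212 CPM to 5.24, 13.3 and 0.534 CPM (-4.89 ± 0.54, adjusted p = 0.000396). The intervals of Fdft1, Npc1, Hk3, Pfkp and Tpi1 overlap another gene on the opposite strand, whose reads could be shared if strand was not used in counting.

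Of 27 genes of the ATF4 response to amino acid shortage, 9 rose and 4 fell (median 0.20), beside 8.89% and 10.4% of all genes. Psat1, of serine synthesis, was at 186, 199 and 205 CPM in control and at 387, 449 and 445 CPM in cDKO (1.11 ± 0.08, adjusted p = 4.18e-05), and Mthfd2, of the mitochondrial folate cycle, at 169 to 177 CPM against 260 to 268 CPM (0.59, adjusted p = 0.000455). Vldlr, a lipoprotein receptor, had the largest value of the list, from 0.554, 1.04 and 1.14 CPM to 153, 84.4 and 317 CPM (7.59 ± 0.62, adjusted p = 7.62e-05). Nupr1, a stress-induced nuclear protein gene, rose by 1.39 (adjusted p = 0.00428), and Cebpb, a transcription factor gene also tied to the myeloid lineage, fell by 0.86 (adjusted p = 0.00183).

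The uptake and salvage of uridine bear on how much 4SU enters RNA, and 3 of 17 such genes rose and 2 fell, beside 8.89% and 10.4% of all genes. Uck2, the kinase that phosphorylates uridine and 4SU, was at 204, 195 and 177 CPM in control and at 130, 130 and 129 CPM in cDKO (-0.57 ± 0.08, adjusted p = 0.00145). Slc29a3, a nucleoside transporter, fell by 1.14 (adjusted p = 0.000567), and Nt5c3, a pyrimidine nucleotidase, rose from 62.6, 54.4 and 51.6 CPM to 118, 124 and 153 CPM (1.22 ± 0.13, adjusted p = 0.000319). Upp1, uridine phosphorylase, rose by 1.60 from a low level (adjusted p = 0.0206, and up to 0.0792 with a library left out). These values move with the lower conversion rates below, and their part in them was not tested.

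Of 11 genes of terminal transferases 3 were called (19.2% of all genes were), the targeted Tut4 and Tut7, and Tent5a. Tent5a rose from 596, 602 and 639 CPM to 763, 852 and 719 CPM (0.34 ± 0.07, adjusted p = 0.0116, and 0.059 without control replicate 1). Of 41 genes of deadenylation and 3′ decay, Btg2 and Cnot8 fell (10.4% of all genes did) and Upf1 rose (8.89% did). Each call was lost on leaving out a library (adjusted p up to 0.102, 0.114 and 0.0971). Among 18 let-7 targets and Lin28 genes, Nras (chromosome 3), Igf2bp3 and Arid3a fell and Lin28a rose, beside 10.4% and 8.89% of all genes. The calls of Arid3a and Lin28a were lost with a library left out (adjusted p up to 0.119 and 0.106). Igf2bp3, an RNA-binding protein gene of fetal cells, was at 268, 266 and 256 CPM against 194, 197 and 196 CPM (-0.44 ± 0.07, adjusted p = 0.00199). The interferon list had 4 of 14 lower and none higher, beside 10.4% and 8.89% of all genes. Oas1a was at -2.83 ± 0.49, but 96.9% of its reads mapped to more than 1 place. The calls of Irf9, Irf1 and Gbp7 (chromosome 3) were lost with a library left out (adjusted p up to 0.0785). Of 24 immediate early and feedback genes, 4 fell (10.4% of all genes did), among them Jun (-2.45 ± 0.49, adjusted p = 0.00768), and Dusp1 rose (1.70 ± 0.49), a call lost without cDKO replicate 2 or any 1 control library (adjusted p up to 0.182). Of 27 DNA replication genes, Mcm3 alone was called and rose by 0.28 (adjusted p = 0.0186, up to 0.0576 with a library left out). Of 41 ribosomal protein genes 2 rose and 4 fell, with Rps3 at -0.33 ± 0.06 and Rps9 at 0.29 ± 0.06. In neither list did the share called exceed the 8.89% higher and 10.4% lower of all genes.

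The residual conversion rate was lower in every cDKO library. Over all 3′ UTRs it was 0.309, 0.330 and 0.305% in control and 0.190, 0.209 and 0.162% in cDKO, a log2 ratio of -0.75 (two-sided exact permutation test, p = 0.1, the smallest that 3 against 3 libraries can give). Of all reads, 6.18 to 6.62% carried a conversion in control, and 3.58 to 4.48% did in cDKO. At 0 min the control rates had been 1.62 to 1.67% and the cDKO rates 0.542 to 0.845%, so the residual rate was examined in 3 ways: as it stands, relative to the rate of the whole library, and as the change of the genotype ratio from 0 to 540 min.

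As it stands, the rate could be tested in 7667 genes with at least 1000 covered T positions in each library. The cDKO rate was called lower in 897 genes (11.7%) and higher in 9 (0.117%, edgeR quasi-likelihood test on conversions with covered T positions as offset), with a median log2 ratio of -0.52. Calls followed the size of the rate. Genes were ranked by mean rate and cut into 4 equal classes. In the lowest class, with median rates of 0.0565% in control and 0.0441% in cDKO, 10 of 1917 were called lower and the median log2 ratio was -0.37. In the highest class, with medians of 0.451 and 0.283%, 627 of 1917 were called lower and the median was -0.65. The cDKO mean lay above the control mean in 1773 genes (23.1%), in 36.2% of the lowest class and in 11.3% of the highest. All cDKO libraries were above all control libraries in 155 genes (2.02%) and below them in 1838 (24%).

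**Figure D3:**
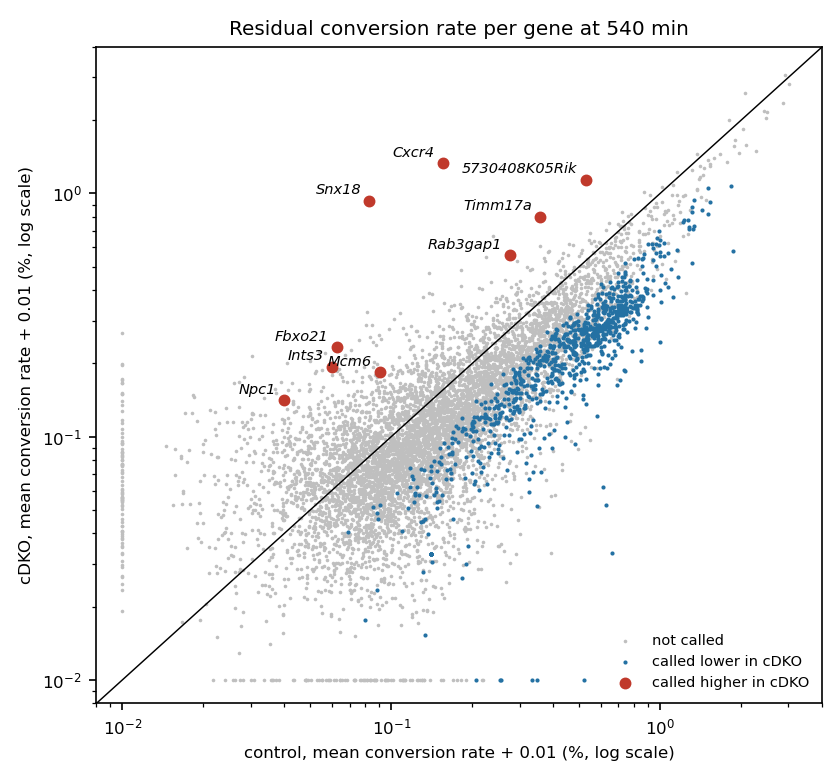
Mean residual conversion rate of each of 7667 genes at 540 min in control (horizontal axis) and cDKO (vertical axis), as percent plus 0.01 on log scales; the line marks equal rates. Most genes lie below the line, the 897 genes called lower lie mostly at higher rates, and the 9 genes called higher are named.

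The 9 genes with a higher rate in cDKO were Snx18, Cxcr4, Fbxo21, Npc1, Ints3, Timm17a, 5730408K05Rik, Mcm6 and Rab3gap1. Cxcr4, the receptor that holds progenitors and neutrophils in the marrow, had the smallest p. In its 3′ UTR interval (chr1:128588199-128588842, minus strand, mm10), the rate was 0.128, 0.147 and 0.161% in the control libraries and 1.36, 1.39 and 1.23% in the cDKO libraries (log2 ratio 3.18 ± 0.22, adjusted p = 6.29e-34). A conversion was present in 4.13, 4.75 and 5.23% of its reads in control and in 43.8, 44.3 and 39.9% in cDKO. Its place among the 7667 genes in order of rate was 3750 in control and 20 in cDKO. Along the chase its control mean went from 1.86% at 0 min to 0.145% at 540 min, while its cDKO mean went from 2.25% to 1.33%, so it was above control at 0 min as well. In cDKO the converted reads of Cxcr4 carried 1.26 conversions each at 0 min and 1.01 at 540 min, and in control 1.38 and 1.00. The deposited tables sum conversions over an interval and hold no positions, so conversions spread over many T positions and a T-to-C difference at 1 position cannot be told apart here.

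Snx18, a sorting nexin of endocytic membranes, was at 0.0317, 0.147 and 0.0404% in control and at 0.812, 1.01 and 0.945% in cDKO (chr13:113592179-113594608, minus strand, 3.50 ± 0.43, adjusted p = 2.62e-11). Conversions lay in 24.2 to 28.6% of its reads in cDKO and in 0.755 to 4.45% in control. Its converted reads in cDKO carried 1.29 conversions each at 0 min and 1.01 at 540 min, and what was said of single positions in Cxcr4 holds for Snx18. Its control mean at 0 min was 2.23% and its cDKO mean 1.75%. Timm17a, a subunit of the mitochondrial import channel, was at 0.362, 0.439 and 0.244% against 0.748, 0.877 and 0.756% (chr1:135301535-135301917, minus strand, 1.19 ± 0.27, adjusted p = 0.000289). Mcm6, a subunit of the replicative helicase, was lower in absolute terms, at 0.0658, 0.0952 and 0.0824% against 0.211, 0.207 and 0.106% (chr1:128331575-128333480, minus strand, 1.10 ± 0.27, adjusted p = 0.0012). In these 3 genes every cDKO library lay above every control library, and their calls, like that of Cxcr4, held under each alternative in which they were tested.

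Rab3gap1, part of a regulator of Rab GTPases, was at 0.259, 0.274 and 0.265% in control and at 0.475, 0.622 and 0.549% in cDKO (chr1:127942611-127943876, plus strand, 1.04 ± 0.32, adjusted p = 0.0146, up to 0.071 with a library left out). Fbxo21, a ubiquitin ligase subunit, was at 0.0118 to 0.0733% against 0.152 to 0.294% (chr5:118008198-118010191, plus strand, 2.12 ± 0.70). Npc1, the lysosomal cholesterol exporter, was at 0.0170 to 0.0457% against 0.0557 to 0.185%, and its interval overlaps Rmc1 on the opposite strand (2.09 ± 0.65). Ints3, of the Integrator complex (chromosome 3), was at 0.0162 to 0.102% against 0.0597 to 0.258%, so its genotypes overlapped (1.82 ± 0.58). The last 3 genes rest on 10 to 23 conversions in control, and their calls were lost with a library left out (adjusted p up to 0.243, 0.145 and 0.188).

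In 5730408K05Rik, the cDKO libraries disagreed: replicate 1 was at 0.317%, below the control libraries at 0.594, 0.482 and 0.478%, and replicates 2 and 3 were at 1.498 and 1.58% (1.12 ± 0.22, adjusted p = 3.13e-05, and 0.203 with DESeq2). Its cDKO rates at 0 min were 0.994, 0.710 and 0.609%, so the rates of replicates 2 and 3 at 540 min were above every cDKO rate at the start of the chase. At 540 min a conversion was present in 7.97, 38.8 and 40.2% of its cDKO reads, with 1.02 conversions per converted read. What was said of single positions in Cxcr4 holds for this gene too. Its interval overlaps Mir5136.

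Rab3gap1, Mcm6 and Cxcr4 lie close together on chromosome 1, with Timm17a further along it. Of 7 tested genes from Rab3gap1 to Cxcr4, 4 had a higher mean rate in cDKO, the fourth being Zranb3 at 0.0908% against 0.135% (adjusted p = 0.888), and R3hdm1, Ubxn4 and Dars had a lower one. Over chromosome 1 the share of genes with a higher mean rate in cDKO was 27.3%, beside 23.1% of all genes, and the other chromosomes ranged from 18.5 to 28.3%. The abundance of the 9 genes was called lower in 3 (Cxcr4, Npc1 and Ints3) and higher in none. Of all 7667 genes with a rate, 18.6% were called in abundance in either direction. The abundance calls of Cxcr4 and Npc1 were lost with a library left out (adjusted p up to 0.0543 and 0.162), and Ints3 lies on chromosome 3.

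**Figure D4:**
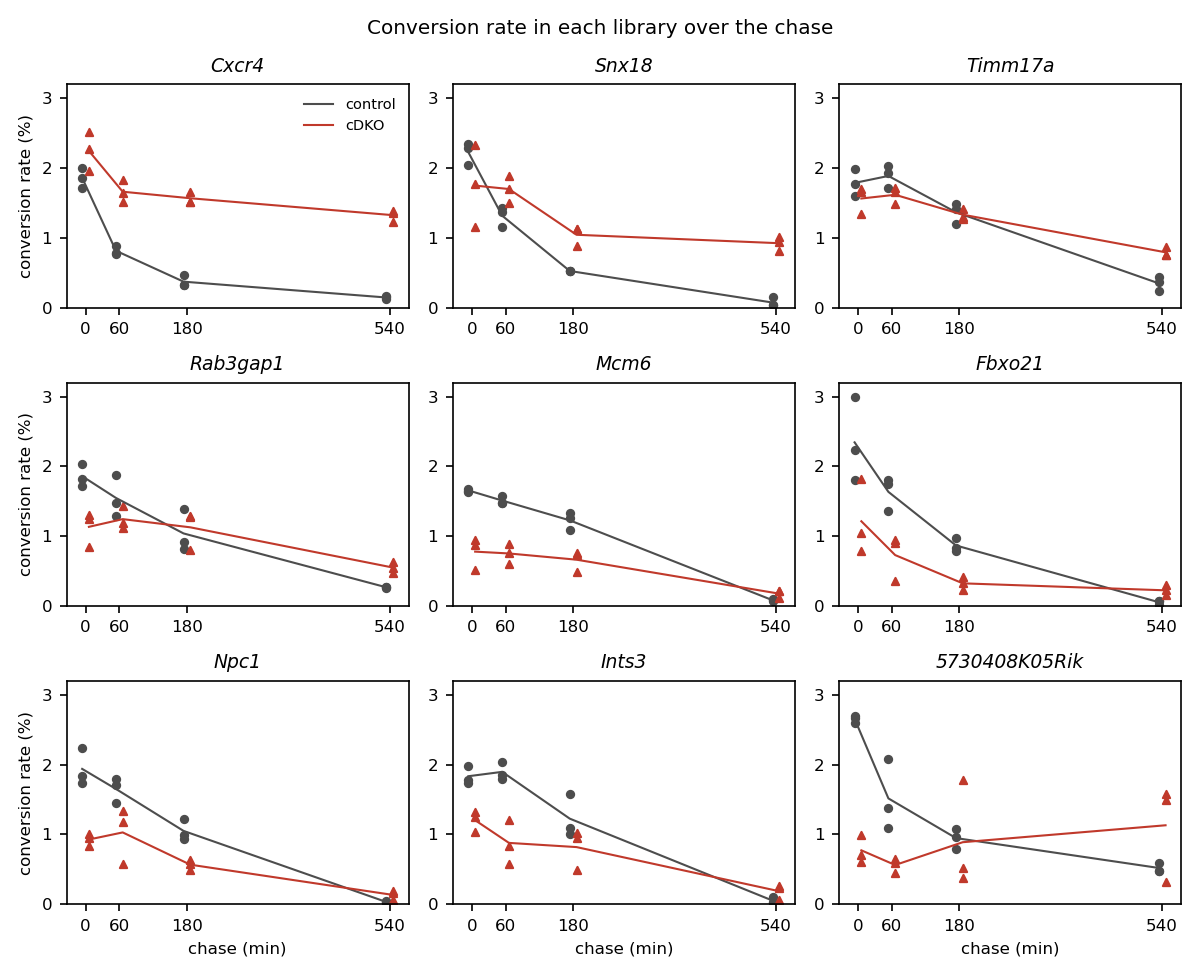
Conversion rate (percent) of the 9 genes called higher in cDKO at 540 min, in each control (circles) and cDKO (triangles) library over the chase in min, with lines through the means and points set slightly apart for display. Cxcr4 and Snx18 in cDKO lie above control from 60 min on, in Timm17a, Mcm6, Fbxo21, Npc1 and Ints3 the means cross between 180 and 540 min, and cDKO libraries of 5730408K05Rik disagree at 180 and 540 min.

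The highest rates at 540 min were much the same in both genotypes. Of the 10 genes with the highest mean rate in each genotype, 8 were shared, and none of the 10 in control was called. Rpl14 was at 2.99 ± 0.222% in control and 2.81 ± 0.186% in cDKO (SD, n = 3), and Tyrobp, a signaling adaptor of myeloid cells, at 2.90 ± 0.0890% and 3.05 ± 0.253%. At 0 min their means were 2.39 and 2.44% for Rpl14 and 3.44 and 3.48% for Tyrobp. The rate of Rpl14 was thus higher at 540 min than at 0 min in both genotypes, while the library rates fell. For both genes, too, label left from the pulse and a T-to-C difference at 1 position cannot be told apart in these tables. Elane, whose reads fell steeply, had rates of 1.58, 1.67 and 1.497% in control and 1.18, 1.63 and 1.35% in cDKO, which overlapped (-0.22 ± 0.19, adjusted p = 0.572).

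Ribosomal protein genes had the lowest median ratio of the lists. The rate was called lower in 33 of 38 (11.7% of all genes were), with a median log2 ratio of -1.15 beside -0.52 for all genes. Rps4x was at 0.836, 0.751 and 0.734% in control and at 0.227, 0.205 and 0.214% in cDKO (-1.84 ± 0.32, adjusted p = 1.12e-06), and Rpl6 at 0.781, 0.778 and 0.846% against 0.252, 0.353 and 0.255% (-1.48 ± 0.20, adjusted p = 1.16e-09). Many of these genes have processed copies: in 15 of the 38, 50% or more of the reads mapped to more than 1 place (median log2 ratio -1.22), while in 15 others under 10% did (median -1.13, 11 called lower). The median control rate was 0.715% in the first class and 0.732% in the second, above that of the highest of the 4 rate classes.

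Glycolysis had 7 of 15 genes with a lower rate and none with a higher one (median -0.74), beside 11.7% and 0.117% of all genes. Pkm, pyruvate kinase, was at 0.626, 0.631 and 0.591% against 0.271, 0.279 and 0.176% (-1.35 ± 0.18, adjusted p = 2.26e-10), and Aldoa at 0.585, 0.602 and 0.531% against 0.306, 0.306 and 0.204% (-1.07 ± 0.18). Pgk1 fell likewise (-1.32 ± 0.22), with 99.6% of its reads mapping to more than 1 place. Ldha was at 0.450, 0.407 and 0.352% against 0.309, 0.279 and 0.205% (-0.60 ± 0.21, adjusted p = 0.0388, up to 0.216 with a library left out). Of 14 myeloid progenitor genes, Ctsg, Itgam, Prtn3 and Ms4a3 had lower rates (11.7% of all genes did). The calls of Itgam, Prtn3 and Ms4a3 were lost with a library left out (adjusted p up to 0.0763, 0.0978 and 0.162), while that of Ctsg held, at 0.835, 0.901 and 0.822% against 0.433, 0.410 and 0.255% (-1.22 ± 0.17, adjusted p = 2.21e-09). In cholesterol biosynthesis, 2 of 22 rates were lower, near the 11.7% of all genes, among them that of Lbr (-0.90 ± 0.22). Fdps had rates of 0.262, 0.213 and 0.393% against 0.123, 0.324 and 0.454%, which overlapped (adjusted p = 0.986), from 41 and 17 conversions in all. Hmgcs1, with 13 and 17 conversions, was at 0.0148 to 0.0336% against 0.0105 to 0.0867% (adjusted p = 0.557). Bcl2 was at 0.0430 to 0.0677% against 0.0596 to 0.0917% (adjusted p = 0.805). Tut4 and Tut7 had 3 conversions and 1 in the cDKO libraries, and their rates were not called (adjusted p = 0.4 and 0.724).

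In the other lists, calls in rate stand beside 11.7% of all genes called lower and 0.117% called higher. Of 16 uridine salvage genes, Nme2 (-1.17), Cad (-1.07) and Nme1 (-0.65) were lower, and those of Cad and Nme1 were lost with a library left out (adjusted p up to 0.4 and 0.103). Phgdh (-0.95, chromosome 3) and Psat1 (-0.55) were lower among 21 ATF4 genes, Ccng1 (-1.87) among 9 p53 targets, Pan3 (-0.98) among 35 decay genes, and Ly6c2 (-1.19, adjusted p = 1.67e-09) among 6 monocyte genes. With a library left out, the calls of Phgdh, Psat1 and Pan3 were lost (adjusted p up to 0.152, 0.241 and 0.236). In cholesterol transport, Npc2 was lower (-1.08) and Npc1 higher of 17 genes, and of 27 DNA replication genes Mcm6 alone was called. None was called in the Bcl2 family, immediate early, interferon, let-7, terminal transferase, cytokine receptor, Hoxa9 and Meis1, neutrophil, mast cell, megakaryocyte and erythroid lists, which had 1 to 18 testable genes each.

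**Figure D5:**
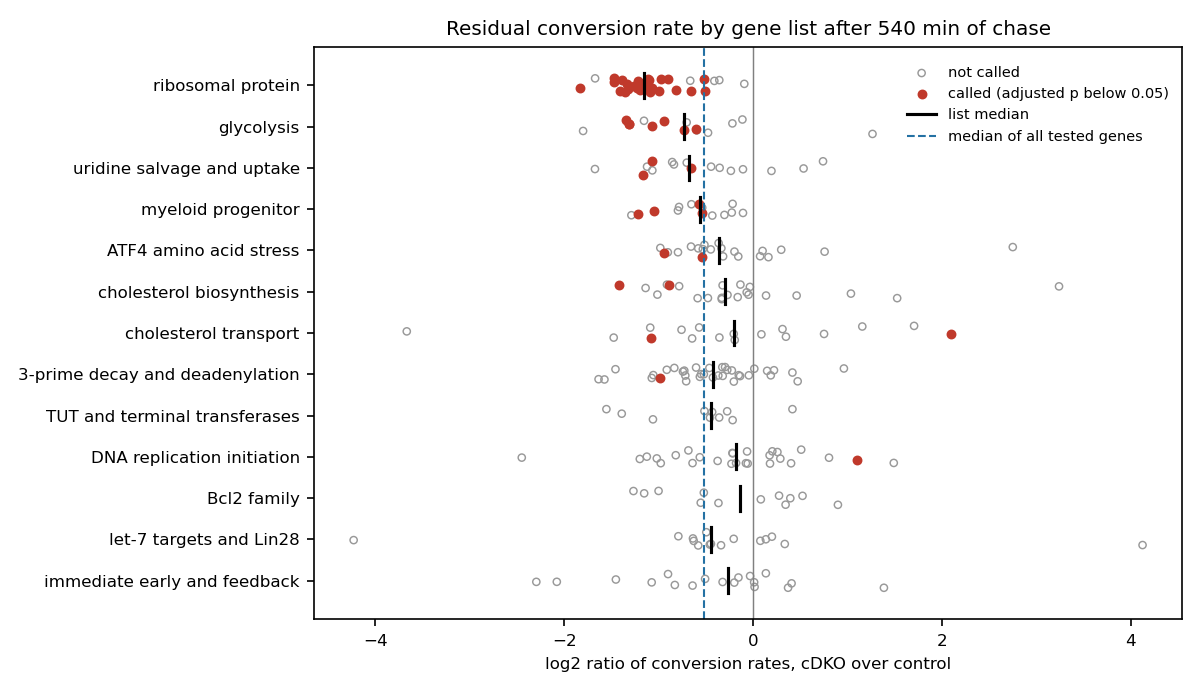
Log2 ratio of the residual conversion rate, cDKO over control at 540 min, for every tested member of 13 gene lists; filled points were called, open points were not, black bars are list medians and the dashed line is the median of all 7667 genes. Ribosomal protein genes lie to the left of the dashed line with a median of -1.15, and DNA replication and Bcl2 family genes have medians of -0.18 and -0.14.

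The 10 largest decreases in rate were in genes with few conversions in cDKO: Pdzd11, Nfatc2ip, Zdhhc17, Tcirg1, Noct (chromosome 3) and Itgb3 had none, Mthfsl and Drosha 1 each, and Prdx4 and Ttc17 had 2 each. Pdzd11 had 25 conversions over 6987 covered T positions in control and none over 7069 in cDKO (at least 8.43-fold lower, against a floor of 3 conversions over the group). Control replicate 1 of Pdzd11 had none either, so the genotypes overlapped. Prdx4, a peroxiredoxin of the endoplasmic reticulum, had 69 over 11129 against 2 over 5633 (17.5-fold lower, exact 95% binomial interval 4.65 to 147, adjusted p = 0.000245), and was the only 1 of the 10 whose call held with each library left out in turn. Drosha, which starts miRNA maturation, had 21 over 18543 against 1 over 16975 (adjusted p = 0.0352, up to 0.331 with a library left out).

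Relative to the rate of the whole library, 158 genes were called (2.06%), 79 of them above the control value (1.03%) and 79 below it (1.03%), and the median log2 difference was 0.22. All 9 genes above were among the 79 higher, led by Snx18 (4.26) and Cxcr4 (3.93). The same conversions are used here, and the lower library rate of cDKO raises each log2 ratio. The place of the 9 genes is thus no separate support for them. Among ribosomal protein genes 14 of 38 were lower and 2 higher, among them Rps4x (-1.09, adjusted p = 0.0326) and Rpl5 (-0.71, adjusted p = 0.000562). Pkm (-0.61), Ctsg (-0.48) and Ly6c2 (-0.44) were lower too, and Elane (0.48), Hoxa9 (0.46), Cdk6 (0.50), Arid3a (0.54) and Tfrc (0.58) higher. When the median over genes stood in for the library rate, the split was 21 higher and 261 lower, so which genes stand below or above the library depends on what stands for its rate. Abundance was called in 30.4% of the genes that were higher in relative rate (9 up and 15 down) and in 35.4% of those that were lower (15 up and 13 down), beside 18.6% of all 7667 genes.

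The interaction of genotype and time was tested on 12 libraries taken as independent. From 0 to 540 min, the ratio of the cDKO rate to the control rate rose in 67 of 7172 genes (0.934%) and fell in none. This count is not stable: with a library left out it ranged from 9 to 147, with a block for each culture it was 206, and with the library rate in the offset it was 29 higher and 21 lower. In the fit reported here 1425 genes (19.9%) had an unadjusted p below 0.05. The median log2 change over all genes was 0.62: at 0 min the cDKO mean was above the control mean in 7 of 7165 genes, and at 540 min in 1598 of the same genes. A change between times is also one between batches. Of the 9 genes above, 8 were called, with Cxcr4 at 2.91, Snx18 at 3.83 and Mcm6 at 2.19, and Timm17a just missed the threshold (1.39, adjusted p = 0.0519). The 9 genes were picked by their rates at 540 min, which this test reuses, so these calls are no separate support. Ribosomal protein genes differed from the median of all genes in this measure, with a median change of -0.03 over 36 genes and none called. The median change was 0.80 in the class of genes with the lowest residual rates and 0.45 in the class with the highest. No background of conversions read without label was subtracted, and its part in these changes was not tested.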

How the data were processed

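Total RNA of 3 control and 3 cDKO cultures per chase time was alkylated and made into QuantSeq 3′ end libraries, and the 540 min libraries, plus those at 0 min for the change over the chase, were used. The authors processed the reads with SlamDunk (0.4.3, from the submitters' processing notes) against mm10 3′ UTR intervals; the alignment and filter settings for single libraries are not given in the sources used here. The deposited tables hold, per interval, counts of reads, reads with a conversion, covered T positions and conversions, a deposited CPM value, from which the number of filtered reads was recovered, and a conversion rate as a fraction, which was not used directly. Of 39419 lines per table, 99.18% were matched to a symbol. Repeated intervals were counted once, and of overlapping intervals of a gene the longest was kept, which left 29021 intervals in 20867 genes, summed per gene. Read counts were tested with edgeR 4.0.16 (filterByExpr, TMM, quasi-likelihood) over the 6 libraries in R 4.3.3. Conversions were tested the same way with log covered T positions as offset, in genes with at least 1000 covered T positions in each library, also with the library rate in the offset, and with the interaction of genotype and time over 12 libraries. P-values were adjusted by Benjamini-Hochberg over all genes tested, with a threshold of 0.05. Binomial intervals and floors of 3 counts cover counting error only, since reads carried no molecular identifiers. Simulated data with a fixed spread, not taken from these libraries, were used to check the abundance test, the rate test relative to the library and the interaction test with the library rate in the offset. The rate test as it stands and the interaction test without that offset were not checked.

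Genes, gene lists and motif were chosen with earlier results of these data known. Named genes were the study's genes, the 12 largest changes of abundance in each direction among called genes with at least 10 CPM and no overlap, up to 15 higher and 10 lower rates, the 10 largest interactions, and up to 4 called members of each list; list members named beyond these were chosen after their values were seen. Alternatives were DESeq2 1.42.0, other scalings, filters, coverage minimums and intervals, uniquely mapping reads, all 24 libraries in 1 fit, a replicate block, omission of chromosome 3 and omission of each library in turn. Single results for a few list members are not reported here.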

Additional observations from a re-analysis of the deposited data

Results flagged for a closer look

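The test of whether the genotype ratio of the conversion rate differed between 0 and 540 min called 67 genes, and in each of them the ratio of cDKO to control was higher at 540 min. The 10 largest log2 changes of the ratio were 7.16 in Fbf1, 6.89 in Slc41a3, 6.57 in Tmem192, 5.76 in Rcc1l, 5.14 in Mif4gd, 5.10 in Eif2ak1, 4.63 in Rab29, 4.42 in Kpna1, 4.31 in Ppil4 and 4.12 in Kxd1, with adjusted p from 0.0179 to 0.0459. Each rests on few conversions in the control libraries at 540 min: none in Fbf1, Slc41a3, Tmem192 and Rcc1l, 1 each in Mif4gd, Eif2ak1, Rab29 and Kpna1, 2 in Ppil4 and 4 in Kxd1. The fitted size for a gene without conversions depends on the prior count and is no bound. In cDKO these genes had 8 to 22 conversions. At 0 min their mean rates were lower in cDKO, as in Fbf1 at 0.310% against 1.73% and in Ppil4 at 1.22% against 2.32%. All 10 calls were lost when a library was left out.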

How the results depend on the processing

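Library-wide, the log2 ratio of conversion rates lay between -0.84 and -0.66 with a library left out, and at -0.47 for the median of per-gene rates. Abundance calls ranged from 1182 to 2070 with a library left out (552 to 982 higher, 630 to 1117 lower), the fewest without control replicate 1. Rate calls ranged from 669 to 902 (6 to 12 higher, 657 to 896 lower). Genes higher in rate were 5 with DESeq2 and 34 with all 24 libraries in 1 fit. Relative to the library, the counts were 550 with all 24 libraries (395 higher, 155 lower), 282 with the median of per-gene rates (21 higher, 261 lower), and 67 to 161 with a library left out (35 to 74 higher, 32 to 87 lower). The change from 0 to 540 min called 260 genes with DESeq2, 181 with all 24 libraries, 105 with 5000 covered T positions, 29 higher and 21 lower with the library rate in the offset, and 9 (without control replicate 1 at 0 min) to 147 (without cDKO replicate 2 at 0 min) with a library left out. The causes of these shifts were not tested.

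Same-numbered control and cDKO libraries did not deviate together (r from -0.053 to -0.027), so the numbers do not pair the genotypes. Within cDKO, replicate 3 had the lowest library rate at each chase time and replicate 2 the highest. The fit reported above for the change over the chase had no term for the culture. A replicate block gave 1580 abundance calls, 935 rate calls (10 higher), 173 relative to the library, and 206 for the change over the chase, where each culture was a block.

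Of 99 genes named and called for abundance, 74 kept the call in all alternatives, as did 20 of 44 for the rate and 0 of 10 for the change. Values of genes not called changed sign with a library left out: abundance of Fdft1 (-0.035 to 0.24), Mcm2 (-0.12 to 0.033), Mcm7 (-0.060 to 0.11) and Nkg7 (-0.33 to 0.17), and the rate of Fdps (-0.38 to 0.38), Papola (-0.38 to 0.0055), Bad (-0.43 to 0.96), F2rl2 (-0.29 to 0.67) and Mitf (-3.03 to 0.81). The rate of Fdps was also 0.0058 with the replicate block and 0.19 as the share of reads with a conversion. Depth limits the rate: genes under 1000 covered T positions were not tested.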
